A study of Mus musculus with 13 samples.

Results

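Nuclear genes for the subunits and assembly factors of respiratory complex I were followed in gluteal white adipose tissue (WAT) of mice kept at 22°C or at 29°C. They were taken as all rows of the deposited count table whose Ensembl identifier maps to a mouse symbol that begins with *Nduf*. Of 34419 rows, 51 met this rule, 4 of which were pseudogenes and were left out (*Ndufab1-ps*, *Ndufs6b*, *Ndufb4c* and *Ndufa11b*). The 47 remaining genes comprised 37 subunits, 8 assembly factors of the Ndufaf series and 2 genes that carry the name without being structural subunits of complex I, *Ndufa4* and *Ndufa4l2*. All 47 passed the filter on low counts and were among the 17779 genes tested.

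The study asked how cool housing changes adipose tissue, and this comparison addresses its transcripts. Male C57BL/6J mice were bred and kept at 22°C (standard room temperature, 7 mice) or 29°C (thermoneutrality, 6 mice) until 13 weeks of age, with posterior hair removed after weaning in both groups. Each mouse gave 1 RNA-seq library, and each housing temperature is described below by its mice. Libraries held between 22356637 and 25245785 counts, with lower totals in 22°C replicates 1 to 5 than in the other libraries. In bulk tissue of this kind, fewer cells of a type and less RNA per cell cannot be told apart. The 12 markers of mature adipocytes were all measured and their summed level overlapped between temperatures, at 32422 to 48757 CPM (counts scaled by library size) in the 22°C mice and 37064 to 49814 CPM in the 29°C mice. One of them, *Lep*, was called lower at 22°C and did not overlap, at 735 ± 151 CPM (SD, n = 7) against 1261 ± 227 CPM (SD, n = 6), with a log2 fold change of -0.78 (SE 0.15, edgeR adjusted p = 0.0564).

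Complex I, or NADH:ubiquinone oxidoreductase, is the entry point of electrons from NADH into the respiratory chain and is one of its proton pumps. It is L-shaped. A hydrophilic arm in the matrix oxidizes NADH in the N module and reduces ubiquinone in the Q module, while the membrane arm, with a proximal and a distal part, pumps protons. Core subunits carry the chemistry and the pumps, accessory subunits surround them, and assembly factors help to build the complex and then leave. The core subunits of the membrane arm are encoded by mitochondrial DNA and all other subunits by nuclear genes. White adipocytes hold few mitochondria compared with brown adipocytes or muscle fibres, both of which are rich in the complex.

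Because nuclear genes for respiratory subunits are known targets of NRF1, GABPA, YY1 and ERR factors, promoters were searched for short motifs of these 4 factors. RefSeq windows (build GRCm38.p6) from 250 bases before to 50 bases after a start were found for 41 of the 47 genes, with 43 windows in all. Both strands were searched, and no match of one motif overlapped a match of another. The YY1 motif AAGATGGCG lay in 6 of 43 windows (14%), against 1.4% of 32851 windows of all genes, and the NRF1 centre CGCATGCG lay in 4 (9.3%), against 1.87%. The ETS motif of GABPA, CCGGAAG, lay in 6 (14%), against 8.86%, and the ERR motif CAAGGTCA lay in 1 (2.33%), against 1.56%. In all, 16 of the genes had at least 1 of these motifs, and the shares are descriptions without a test. For each motif the window of the gene with the smallest p in the comparison of temperatures is printed below, 5′ to 3′ on the gene's strand with matches in capitals. They show the NRF1 centre 9 bases before the start of *Ndufa8*, the ETS motif 27 bases before the start of *Ndufs3* and again on the other strand at position 2 after it, the YY1 motif at position 25 of *Ndufs7*, and the ERR motif on the other strand 228 bases before the start of *Ndufs5*.
Ndufa8 (chr2:36049289-36049588, minus strand): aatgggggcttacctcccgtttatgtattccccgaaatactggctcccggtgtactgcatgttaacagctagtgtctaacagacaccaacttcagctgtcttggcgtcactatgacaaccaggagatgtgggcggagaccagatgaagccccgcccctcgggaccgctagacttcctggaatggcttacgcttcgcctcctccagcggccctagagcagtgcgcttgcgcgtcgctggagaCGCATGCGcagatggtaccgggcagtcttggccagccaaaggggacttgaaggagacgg
Ndufs3 (chr2:90904672-90904971, minus strand): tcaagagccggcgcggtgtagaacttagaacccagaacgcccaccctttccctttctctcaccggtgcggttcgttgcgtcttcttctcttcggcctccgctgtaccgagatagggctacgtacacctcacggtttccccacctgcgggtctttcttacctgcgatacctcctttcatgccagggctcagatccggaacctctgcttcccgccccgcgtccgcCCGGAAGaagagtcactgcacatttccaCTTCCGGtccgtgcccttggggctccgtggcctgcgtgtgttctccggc
Ndufs7 (chr10:80249199-80249498, plus strand): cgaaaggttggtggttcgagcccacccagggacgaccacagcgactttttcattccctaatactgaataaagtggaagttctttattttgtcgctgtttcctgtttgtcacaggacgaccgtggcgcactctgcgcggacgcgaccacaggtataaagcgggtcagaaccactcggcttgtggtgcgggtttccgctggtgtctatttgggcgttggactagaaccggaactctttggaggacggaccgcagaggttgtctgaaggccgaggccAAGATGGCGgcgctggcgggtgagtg
Ndufs5 (chr4:123718137-123718436, minus strand): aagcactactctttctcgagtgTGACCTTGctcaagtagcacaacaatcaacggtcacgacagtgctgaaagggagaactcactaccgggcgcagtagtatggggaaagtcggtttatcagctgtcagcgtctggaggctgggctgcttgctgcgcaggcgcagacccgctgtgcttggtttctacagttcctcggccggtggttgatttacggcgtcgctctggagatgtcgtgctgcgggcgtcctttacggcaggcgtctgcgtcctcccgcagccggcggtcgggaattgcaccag

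Before the comparison, a pair of libraries has to be set apart. The 34 listed markers of skeletal muscle together took 7.14% of all counts in 22°C replicate 1 and 9.55% in 22°C replicate 7. In the other 22°C mice they took between 0.114% and 1.89%, and at 29°C between 0.0181% and 0.908%. All 34 muscle markers had a log2 fold change above 0 (median 3.25), although edgeR's quasi-likelihood test called 0 of them at P-adj below 0.1. With an unadjusted p below 0.05 there were 25 (10.3% of all genes, counting those higher at 22°C). DESeq2 called 22 (5.58% of all genes in that direction). *Myh7* and *Ampd1* were at 0 in some mice and no marker was at 0 in all. Of 11 tested markers of brown and beige fat, 9 had a log2 fold change above 0. Of these markers edgeR called 3 (1.94% of all genes, in either direction), *Cidea*, *Otop1* and *Cox8b*. Summed levels of the 12 listed were 85.1 to 388 CPM in the 22°C mice and 63.4 to 103 CPM in the 29°C mice. In this sum *Cox8b* was highest in 22°C replicate 1 (111 CPM) and *Cpt1b* in 22°C replicate 7 (112 CPM). The part of muscle in the sum was not tested. *Ucp1* and *Elovl3* were at 0 in some mice, and the part of brown and beige fat cells in the values below was not tested. Skeletal muscle is a tissue rich in complex I, and the main results are therefore also given without 22°C replicates 1 and 7, a choice made after the data were seen. Without them all 34 muscle markers were still above 0 (50.4% of all genes), with a median log2 fold change of 0.86. Leaving them out thus reduced the difference in muscle markers and did not remove it. Of the 11 tested markers of brown and beige fat, 10 were above 0 without these mice. Their median was then 0.62, against 2.17 with all mice. EdgeR then called 2 of the 11, and 263 of all 17944 genes tested.

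Most complex I genes had slightly higher levels at 22°C, and none passed the test. Fold changes are 22°C relative to 29°C, and adjusted p (P-adj) is that of edgeR's quasi-likelihood test by the Benjamini-Hochberg method over all 17779 genes. At P-adj below 0.1, 0 of 47 were called, against 345 of all genes (1.94%). The smallest adjusted p was 0.154, for *Ndufa6*. Of the 47, 42 had a log2 fold change above 0, against 51.6% of all genes tested, and their median was 0.23, against 0.0074 for all genes. An unadjusted p below 0.05 was found for 16, all higher at 22°C, where the share over all genes was 10.3% higher and 8.2% lower. The levels of the 47 genes overlapped between temperatures without exception, while 0.495% of all genes had every mouse at 22°C above every mouse at 29°C. DESeq2 called 4 of the 47 higher at 22°C, *Ndufa6*, *Ndufs7*, *Ndufs3* and *Ndufa12* (DESeq2 adjusted p between 0.0650 and 0.0912), with 5.58% of 16388 genes called in that direction.

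Without 22°C replicates 1 and 7, these counts were smaller. Log2 fold changes were above 0 for 35 of 47 genes (50.4% of all genes), their median was 0.091, and 5 had an unadjusted p below 0.05, namely *Ndufs3*, *Ndufs7*, *Ndufa6*, *Ndufa2* and *Ndufc2* (7.65% of all genes, counting those higher at 22°C). Of the 47 genes, 45 had a lower log2 fold change than with all mice. The median was below 0.23 also without 22°C replicate 1 alone (0.15), and the count at an unadjusted p below 0.05 was 7 without that mouse, 8 without 22°C replicate 7, and 5 without either 29°C replicate 2 or 29°C replicate 4. It was 8 without either 29°C replicate 3 or 29°C replicate 5.

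**Figure D1:**
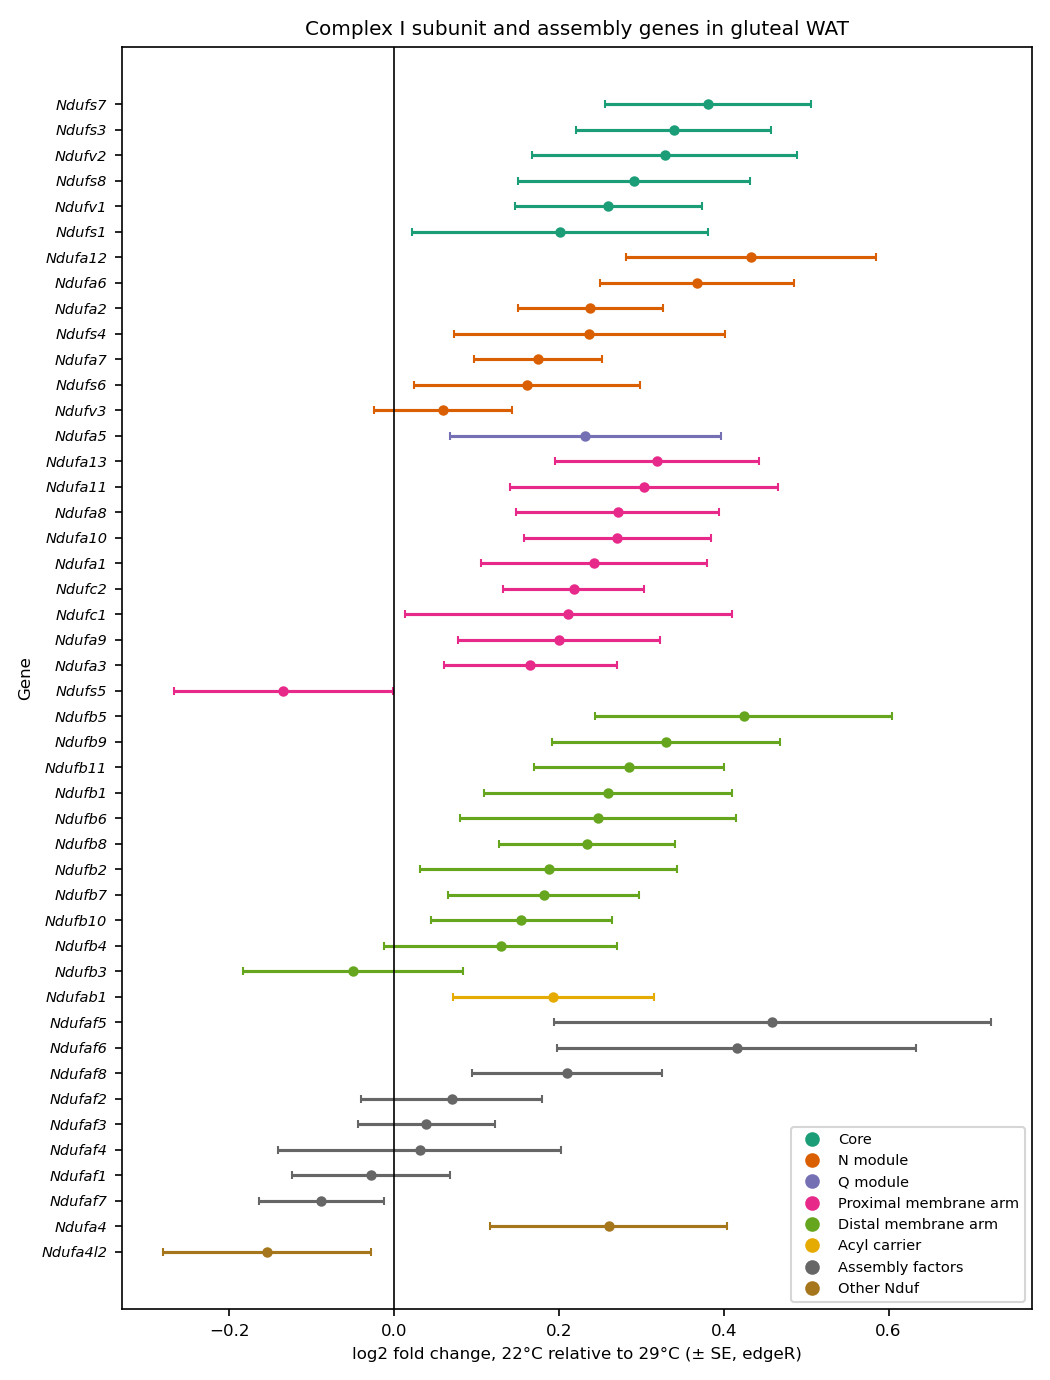
Log2 fold change of 46 of the 47 genes (x axis, 22°C relative to 29°C, points ± SE from edgeR), ordered within groups by module of the complex (colours). Of the 46 points, 41 lie to the right of 0, and *Ndufs5*, *Ndufb3*, *Ndufaf1*, *Ndufaf7* and *Ndufa4l2* lie to its left.

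**Figure D2:**
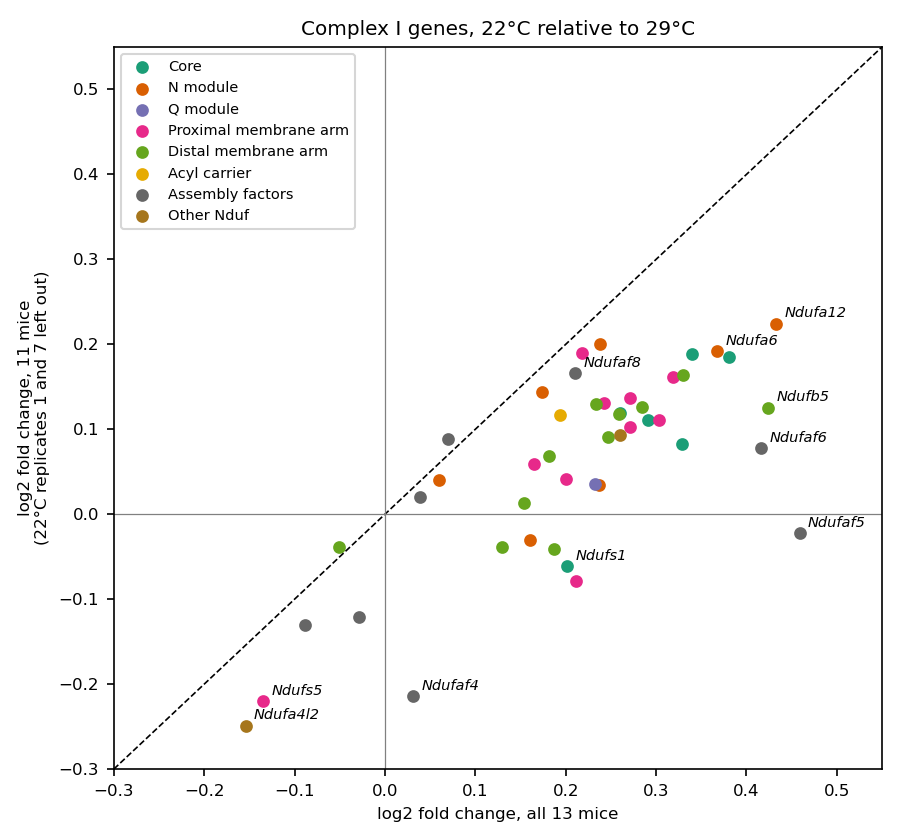
Log2 fold change of 46 genes with all 13 mice (x axis) against the value without 22°C replicates 1 and 7 (y axis), coloured by module, with a dashed line of equal values. Of the 46 points, 44 lie below the line, *Ndufaf5* farthest, from 0.46 to -0.022.

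The 7 nuclear-encoded core subunits hold the flavin, the iron-sulphur clusters and the quinone site. All 7 had a log2 fold change above 0, with a median of 0.33, and 4 had an unadjusted p below 0.05. Without 22°C replicates 1 and 7, 6 of 7 were above 0, the median was 0.12, and *Ndufs3* and *Ndufs7* had an unadjusted p below 0.05.

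*Ndufs7* (ENSMUSG00000020153.15) encodes the subunit with the last iron-sulphur cluster before ubiquinone. Its level was between 95.3 and 164 CPM at 22°C (median 114) and between 87.3 and 104 CPM at 29°C (median 91.8). All but 1 of the 22°C mice were above the highest 29°C mouse, and 22°C replicates 7 and 1 stood highest. The log2 fold change was 0.38 (SE 0.13, adjusted p = 0.162), and 0.19 (SE 0.068, adjusted p = 0.219) without these mice.

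*Ndufs3* (ENSMUSG00000005510.10) encodes a subunit of the Q module. Its level was between 89.0 and 149 CPM at 22°C (median 96.9) and between 68.2 and 96.8 CPM at 29°C (median 83.8). Here 4 of 7 mice at 22°C were above all mice at 29°C. The log2 fold change was 0.34 (SE 0.12, adjusted p = 0.177), and 0.19 (SE 0.083, adjusted p = 0.311) without 22°C replicates 1 and 7.

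*Ndufs8*, whose product carries the pair of clusters that feed *Ndufs7*, was between 44.6 and 79.8 CPM at 22°C (median 52.7) and between 38.4 and 57.5 CPM at 29°C (median 45.3). Its log2 fold change was 0.29 (SE 0.14, adjusted p = 0.289), and 0.11 (SE 0.11) without both mice. For *Ndufs8*, 2 mice at 22°C were above all 29°C mice and 2 mice at 29°C were below all 22°C mice.

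*Ndufv1* (ENSMUSG00000037916.15) binds NADH and the flavin. It was between 122 and 194 CPM at 22°C (median 150) and between 109 and 151 CPM at 29°C (median 127), with a log2 fold change of 0.26 (SE 0.11, adjusted p = 0.244). *Ndufv2*, its iron-sulphur partner, was between 83.4 and 159 CPM at 22°C (median 90.6) and between 66.8 and 95.1 CPM at 29°C (median 79.9), with a log2 fold change of 0.33 (SE 0.16, adjusted p = 0.296). Of the 7 mice at 22°C, 3 for *Ndufv1* and 2 for *Ndufv2* were above all 29°C mice. Without both mice the log2 fold changes were 0.12 (SE 0.091) and 0.083 (SE 0.092).

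*Ndufs1* (ENSMUSG00000025968.17), which encodes the core subunit of the N module with the most clusters, was between 99.1 and 206 CPM at 22°C (median 120) and between 90.6 and 145 CPM at 29°C (median 121). Its medians were alike, and 22°C replicates 1 (206 CPM) and 7 (188 CPM) were the only 22°C mice above all 29°C mice. The log2 fold change was 0.20 (SE 0.18, adjusted p = 0.589) with all mice and -0.061 (SE 0.13, adjusted p = 0.860) without this pair.

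**Figure D3:**
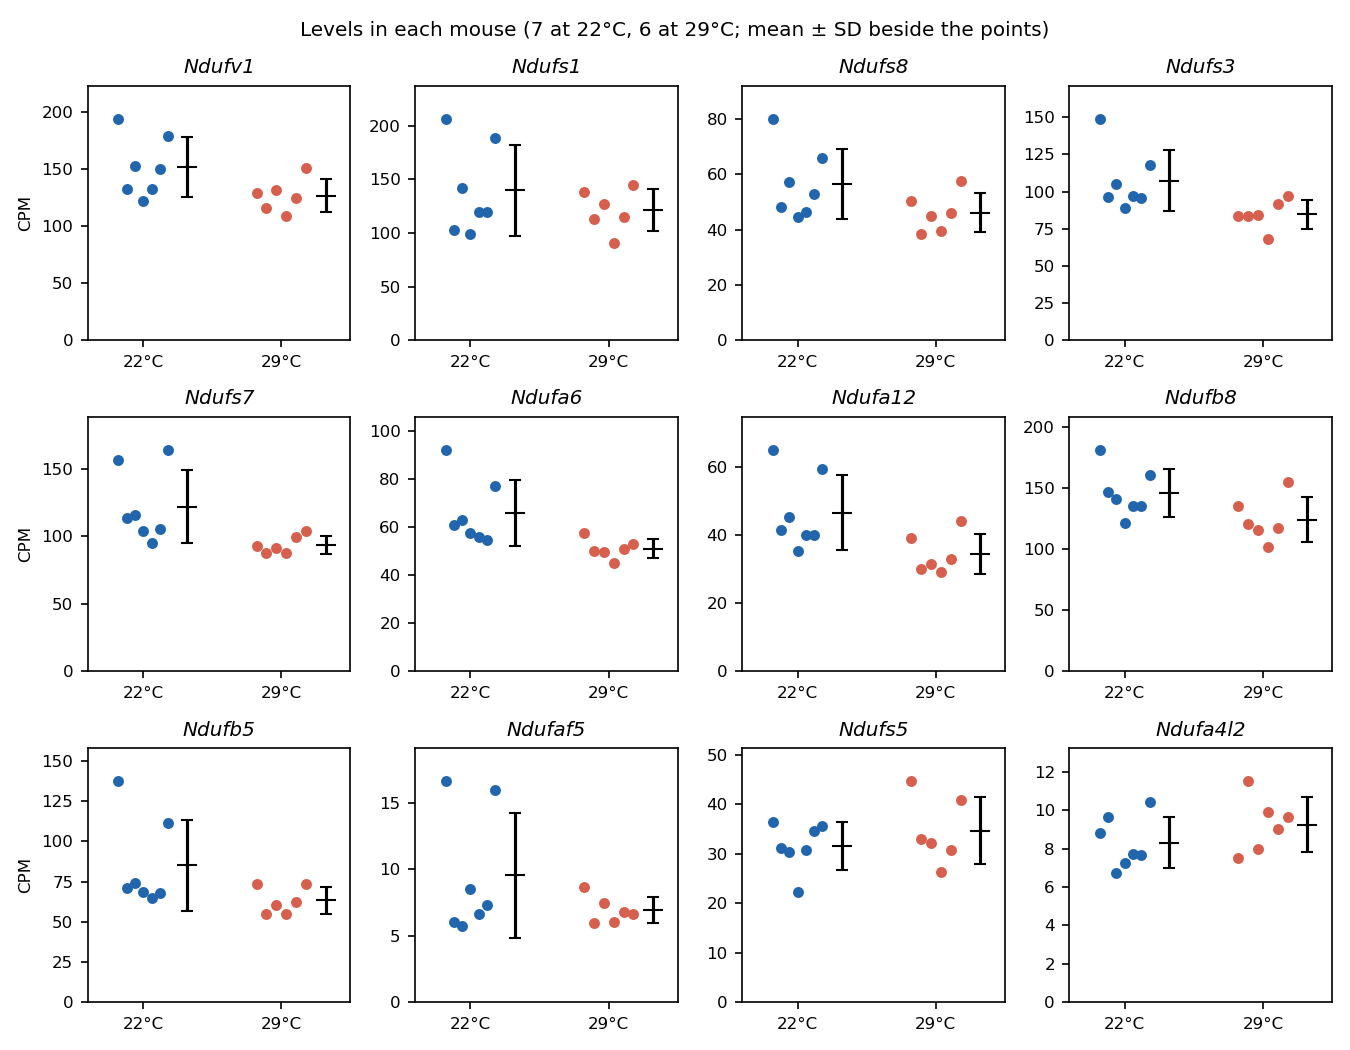
Level of 12 genes in each mouse (y axis, CPM from 0; points left to right are replicates in number order) at 22°C and 29°C, with mean ± SD. In the 22°C group the first and the last point are replicates 1 and 7, which stand highest for genes such as *Ndufb5* (137 and 112 CPM) and *Ndufaf5* (16.6 and 16.0 CPM).

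Accessory subunits of the N module surround the NADH-oxidizing tip. All 7 had a log2 fold change above 0, with a median of 0.24, and 4 had an unadjusted p below 0.05. Without both mice 6 of 7 were above 0 with a median of 0.14. *Ndufa6* (ENSMUSG00000022450.7), an LYR-motif protein that binds the acyl carrier subunit, was between 54.7 and 92.0 CPM at 22°C (median 60.9) and between 45.1 and 57.4 CPM at 29°C (median 50.6). Of the 7 mice at 22°C, 5 were above all 29°C mice. Its log2 fold change was 0.37 (SE 0.12, adjusted p = 0.154), and 0.19 (SE 0.064, adjusted p = 0.190) without both mice.

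*Ndufa12* (ENSMUSG00000020022.18), which takes the place of the assembly factor *Ndufaf2* late in assembly, was between 35.2 and 64.9 CPM at 22°C (median 41.4) and between 29.2 and 44.2 CPM at 29°C (median 32.2). It had the largest log2 fold change of the subunits, 0.43 (SE 0.15, adjusted p = 0.177), which was 0.22 (SE 0.11, adjusted p = 0.382) without both mice. The partner *Ndufaf2* had a log2 fold change of 0.070 (SE 0.11), but 65.6% of its exon length overlaps other genes.

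*Ndufa2* (ENSMUSG00000014294.5), a small subunit with a thioredoxin-like fold, was between 59.6 and 79.3 CPM at 22°C (median 63.2) and between 46.4 and 64.1 CPM at 29°C (median 56.2). In this gene 22°C replicate 7 was low in its group, at 61.7 CPM, and the log2 fold change of 0.24 (SE 0.088, adjusted p = 0.189) was 0.20 (SE 0.086, adjusted p = 0.298) without both mice. The other N module genes, *Ndufa7*, *Ndufs4*, *Ndufs6* and *Ndufv3*, had log2 fold changes between 0.059 and 0.24. *Ndufv3*, at 0.059 (SE 0.084), was the least of them, with a level of 113 ± 8.98 CPM at 22°C (SD, n = 7) and 108 ± 13.7 CPM at 29°C (SD, n = 6).

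Proximal membrane-arm subunits join the hydrophilic arm to the pumps. Of these 10 genes, 9 had a log2 fold change above 0, with a median of 0.23, and 4 had an unadjusted p below 0.05. Without both mice 8 of 10 were above 0 with a median of 0.11. *Ndufc2* (ENSMUSG00000030647.9), among the most abundant per length, was between 82.9 and 110 CPM at 22°C (median 92.7) and between 68.2 and 92.8 CPM at 29°C (median 79.4). Its log2 fold change of 0.22 (SE 0.085, adjusted p = 0.208) was 0.19 (SE 0.084, adjusted p = 0.314) without both mice.

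*Ndufs5* (ENSMUSG00000028648.14), which faces the intermembrane space, was the exception of this module. It was between 22.3 and 36.5 CPM at 22°C (median 31.1) and between 26.4 and 44.6 CPM at 29°C (median 32.7), with a log2 fold change of -0.13 (SE 0.13, adjusted p = 0.630). Its highest level was in 29°C replicate 1, and the log2 fold change was -0.22 (SE 0.14, adjusted p = 0.515) without both 22°C mice.

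Distal membrane-arm subunits surround the outermost pumps. Of 11 genes, 10 had a log2 fold change above 0, with a median of 0.23, and 4 had an unadjusted p below 0.05. Without both mice 8 of 11 were above 0 with a median of 0.091 and none had an unadjusted p below 0.05. *Ndufb8* (ENSMUSG00000025204.11), whose protein is commonly blotted as a marker of assembled complex I, was between 122 and 181 CPM at 22°C (median 142) and between 102 and 155 CPM at 29°C (median 119). Its log2 fold change was 0.23 (SE 0.11, adjusted p = 0.263), and 0.13 (SE 0.10, adjusted p = 0.587) without both mice.

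*Ndufb5* (ENSMUSG00000027673.13) was between 65.1 and 137 CPM at 22°C (median 71.0) and between 54.8 and 73.9 CPM at 29°C (median 61.6). Apart from 22°C replicates 1 and 7, its 22°C mice were between 65.1 and 74.0 CPM. The log2 fold change of 0.42 (SE 0.18, adjusted p = 0.233) was 0.13 (SE 0.087, adjusted p = 0.537) without them.

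Per kilobase of annotated exon, *Ndufb9* and *Ndufb11* were the most abundant of the 47, followed by *Ndufc2*. *Ndufb9* (ENSMUSG00000022354.5), an LYR-motif protein that binds a second copy of the acyl carrier subunit, had 153 CPM per kilobase at 22°C and 121 at 29°C. *Ndufb11* (ENSMUSG00000031059.10) had 141 and 116, and *Ndufc2* 123 and 106. In CPM, *Ndufb9* was between 122 and 210 at 22°C (median 152) and between 99.1 and 159 at 29°C (median 118), with a log2 fold change of 0.33 (SE 0.14, adjusted p = 0.229), and *Ndufb11* was between 108 and 165 at 22°C (median 117) and between 93.1 and 124 at 29°C (median 103), with a log2 fold change of 0.28 (SE 0.12, adjusted p = 0.217). Both overlapped between temperatures. Without both mice the log2 fold changes were 0.16 (SE 0.12) and 0.13 (SE 0.082).

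*Ndufb3* was the other subunit with a log2 fold change below 0, at -0.050 (SE 0.13), with 59.0 ± 7.94 CPM at 22°C (SD, n = 7) and 61.1 ± 14.1 CPM at 29°C (SD, n = 6). Single accessory subunits made up the remainder. *Ndufa5* of the Q module had a log2 fold change of 0.23 (SE 0.16), and the acyl carrier subunit *Ndufab1*, which also serves mitochondrial fatty acid synthesis, had 0.19 (SE 0.12). Exons of 20 of the 47 genes overlap another annotated gene, 8 of them over more than 10% of their length. The strand setting of the counting is not given in the sources used here, so counts of *Ndufaf2* (65.6%), *Ndufb6* (39.0%), *Ndufa13* (30.0%), *Ndufb11* (12.9%), *Ndufb1* (12.7%), *Ndufb5* (12.3%) and *Ndufa2* (11.5%) may hold reads of a neighbour. The overlap of *Ndufb9* (19.5%) lies on its own strand, and its effect on the counts was not tested.

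Assembly factors lay closer to 0 on median than the subunits. Of 8 Ndufaf genes, 6 were above 0 (51.6% of all genes), and their median log2 fold change was 0.055. An unadjusted p below 0.05 was found for 0 of them, against 10.3% of all genes higher at 22°C and 8.2% lower. The difference from the subunits was not tested. Without both mice 4 of 8 were above 0 (50.4% of all genes), with a median of -0.00098. *Ndufaf5* (ENSMUSG00000027384.7), which hydroxylates an arginine of the *Ndufs7* protein, had the largest log2 fold change of all 47 genes, 0.46 (SE 0.26, adjusted p = 0.377). It was between 5.71 and 16.6 CPM at 22°C (median 7.32) and between 5.98 and 8.64 CPM at 29°C (median 6.71). Only 22°C replicates 1 (16.6 CPM) and 7 (16.0 CPM) were above the 29°C mice, and the log2 fold change was -0.022 (SE 0.13, adjusted p = 0.958) without them.

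*Ndufaf6*, at 0.42 (SE 0.22), was likewise highest in 22°C replicates 7 (9.04 CPM) and 1 (6.27 CPM), against 3.16 to 4.57 CPM at 29°C, and its log2 fold change was 0.078 (SE 0.13) without them. *Ndufaf8*, the partner of *Ndufaf5*, had 0.21 (SE 0.12) and 0.17 (SE 0.13) without both mice. *Ndufaf7* (ENSMUSG00000024082.6), a methyltransferase, was between 17.2 and 22.4 CPM at 22°C (median 18.3) and between 17.8 and 22.0 CPM at 29°C (median 20.3), with a log2 fold change of -0.089 (SE 0.076, adjusted p = 0.570). *Ndufaf1*, *Ndufaf2*, *Ndufaf3* and *Ndufaf4* had log2 fold changes between -0.028 and 0.070.

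Assembly factors with other names were split evenly. Of 14 tested, 7 were above 0 (51.6% of all genes) and 7 below, with a median of 0.0014. EdgeR called 0 (1.94% of all genes), and DESeq2 called 2 (10.2% of all genes, in either direction). An unadjusted p below 0.05 was found for 3, 1 higher at 22°C and 2 lower (10.3% and 8.2% of all genes). The smallest p belonged to *Chchd4*, an import receptor of the intermembrane space, at 0.21 (SE 0.063, adjusted p = 0.129), and *Tmem126b*, a component of the machinery that builds the membrane arm, at -0.19 (SE 0.061, adjusted p = 0.152). *Chchd4* was between 12.6 and 15.1 CPM at 22°C and between 11.1 and 12.7 CPM at 29°C, and *Tmem126b* between 25.7 and 30.0 and between 28.8 and 33.6. Without 22°C replicates 1 and 7 these log2 fold changes were 0.23 (SE 0.066, adjusted p = 0.142) and -0.24 (SE 0.062, adjusted p = 0.115). Of the 14, 2 were then above 0 (50.4% of all genes).

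*Ndufa4*, now placed in cytochrome *c* oxidase, had a log2 fold change of 0.26 (SE 0.14) and 0.094 (SE 0.12) without both mice. Its paralog *Ndufa4l2* (ENSMUSG00000040280.11), known to be induced by hypoxia, had the lowest value of the 47, -0.15 (SE 0.13, adjusted p = 0.552). *Ndufa4l2* was between 6.71 and 10.4 CPM at 22°C (median 7.72) and between 7.48 and 11.5 CPM at 29°C (median 9.32), and its log2 fold change was -0.25 (SE 0.13, adjusted p = 0.389) without both mice.

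The 7 mitochondrially encoded subunits, which are the pumps and the quinone-end subunits of the membrane arm, all had log2 fold changes above 0, with a median of 0.41. *mt-Nd6* (ENSMUSG00000064368.1) was called, at 0.89 (SE 0.22, adjusted p = 0.0896). Its level was between 1469 and 4797 CPM at 22°C (median 2975) and between 1182 and 1910 CPM at 29°C (median 1629). The groups overlapped in their lower range, and the value was 0.76 (SE 0.20, adjusted p = 0.119) without both mice, past the threshold no longer. *mt-Nd6* is encoded on the other strand from *mt-Nd5*, whose end it overlaps. The others were *mt-Nd2* (0.58, SE 0.21), *mt-Nd1* (0.43, SE 0.21), *mt-Nd5* (0.41, SE 0.18), *mt-Nd3* (0.37, SE 0.21), *mt-Nd4* (0.28, SE 0.17) and *mt-Nd4l* (0.24, SE 0.27), none of which passed the threshold with edgeR (1.94% of all genes). DESeq2 called 2 of the 7, both higher at 22°C (5.58% of all genes in that direction). Without both mice the median of the 7 was 0.17 and *mt-Nd4l* was at -0.16 (SE 0.21).

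Other respiratory complexes, taken from a list of 38 nuclear subunits expressed in most tissues, had medians of a similar size. All 38 had log2 fold changes above 0 with a median of 0.25, and by complex the medians were 0.22 for complex II, 0.35 for complex III, 0.25 for complex IV and 0.23 for complex V. *Atp5g2*, a c-ring subunit of ATP synthase, was called at 0.44 (SE 0.094, adjusted p = 0.0693), and was 0.36 (SE 0.093, adjusted p = 0.109) without both mice. It was the only one of the 38 that edgeR called (1.94% of all genes, in either direction). DESeq2 called 6, all higher (5.58% of all genes in that direction). Without both mice 35 of 38 were above 0 with a median of 0.10. Of the 9 regulators of nuclear mitochondrial genes, 9 were above 0 with a median of 0.13 and none was called by edgeR, with 2 at an unadjusted p below 0.05, while DESeq2 called 2 (5.58% of all genes higher at 22°C). *Esrra*, which encodes an orphan nuclear receptor for such genes, was at 0.32 (SE 0.11, adjusted p = 0.177), and *Ppargc1a*, its coactivator, at 0.87 (SE 0.31, adjusted p = 0.187). Without both mice they were at 0.21 (SE 0.11) and 0.62 (SE 0.32). With all mice *Nrf1*, *Gabpa*, *Gabpb1* and *Yy1* were between 0.023 and 0.12, *Tfam* was at 0.13, *Pprc1* at 0.15 and *Ppargc1b* at 0.18. Without both mice 8 of the 9 were above 0 (50.4% of all genes), with a median of 0.041. *Pprc1* was then at 0.30 (SE 0.12), alone with an unadjusted p below 0.05 (7.65% of all genes, counting those higher at 22°C), and *Ppargc1b* at -0.041 (SE 0.28).

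Transcripts of the subunits varied together from mouse to mouse. Their mean log2 CPM was 6.14 ± 0.24 at 22°C (SD, n = 7), with a range of 5.86 to 6.55, and 5.91 ± 0.20 at 29°C (SD, n = 6), with a range of 5.66 to 6.17. Without both mice the 22°C range was 5.86 to 6.11, which lies within that of 29°C. Of the 37 subunits, 29 were highest in 22°C replicate 1 and 26 were lowest in 29°C replicate 4. The 37 together took 0.305% ± 0.027 of counts at 22°C (SD, n = 7) and 0.268% ± 0.028 at 29°C (SD, n = 6).

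**Figure D4:**
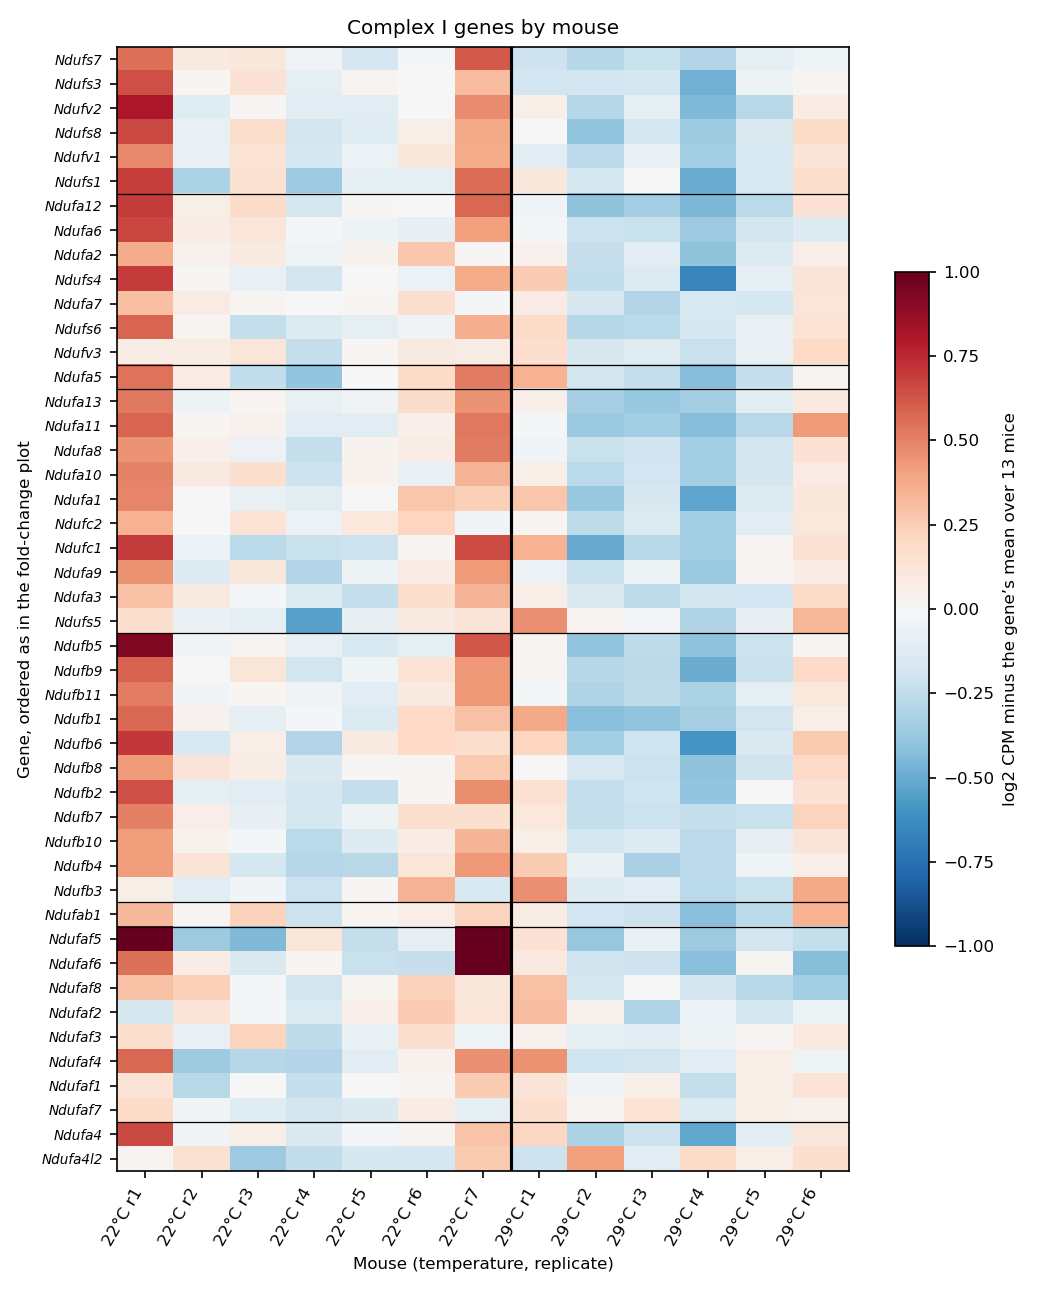
Log2 CPM of 46 genes minus each gene's mean over 13 mice (colour, cut at -1 and 1), genes in rows in the order of the fold-change plot and mice in columns. Most rows are red in 22°C replicates 1 and 7 and blue in 29°C replicate 4, and *Ndufb3* and *Ndufs5* are highest in mice other than these.

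Correlations over the 13 mice are given as descriptions, since the mice share housing groups and a scaling by library. Each subunit was set against the mean of the others. Pearson's r was above 0.85 for 30 of 37 subunits and reached 0.99 for *Ndufb9*, while the lowest values were 0.44 for *Ndufb3* and 0.57 for *Ndufs5*. It was 0.97 for *Ndufa4* and -0.033 for *Ndufa4l2*. The Ndufaf genes were between 0.24 and 0.78, with a median of 0.61. These genes have lower counts than the subunits, and the part of counting noise in this difference was not tested.

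The subunit mean followed that of complexes II to V most closely, with Pearson's r of 0.99 and Spearman's rho of 0.97 over 13 mice, and r of 0.97 without the 2 mice farthest from the median. Within temperatures r was 0.99 at 22°C (n = 7) and 0.99 at 29°C (n = 6). Against 5 abundant mitochondrially encoded subunits r was 0.86 (rho 0.80), 0.63 without the 2 farthest mice, 0.86 within 22°C and 0.74 within 29°C. Against *Esrra* r was 0.86 (rho 0.87), 0.78 without the 2 farthest mice, 0.85 within 22°C and 0.78 within 29°C. Against *Ppargc1a* r was 0.57 (rho 0.52), 0.37 without the 2 farthest mice, 0.49 within 22°C and 0.25 within 29°C. For the mean of the adipocyte markers r was -0.34 (rho -0.088), -0.59 within 22°C and 0.75 within 29°C. It was 0.58 without the 2 farthest mice, which here were 22°C replicates 7 and 1.

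The subunit mean was also set against muscle markers. Against their mean, r for the subunit mean was 0.47 (rho 0.38), 0.65 within 22°C and -0.21 within 29°C, and the difference between temperatures was not tested. Without the 2 mice farthest from the median in muscle markers, 22°C replicate 1 and 29°C replicate 6, r was 0.57. Muscle-rich 22°C replicate 7 stayed in that value. At 22°C, replicates 7 and 1 had the most muscle signal and the highest subunit means (6.38 and 6.55), and replicate 4, next in muscle signal at 1.89% of counts, had the lowest (5.86). At 29°C, the highest subunit means were in replicate 6 (6.17), with the least muscle signal at 0.0181%, and in replicate 1 (6.13), with the most at 0.908%. The part of muscle transcripts in the subunit levels was not tested. With the muscle mean as a covariate, 38 of 47 genes were above 0, and the median was 0.14, against -0.00014 for all genes. In that fit 2 had an unadjusted p below 0.05, *Ndufa2* and *Ndufc2*, and 0 were called, against 41 of all 17779 genes. The shares of all genes above 0 and at an unadjusted p below 0.05 in that fit are not given here.

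**Figure D5:**
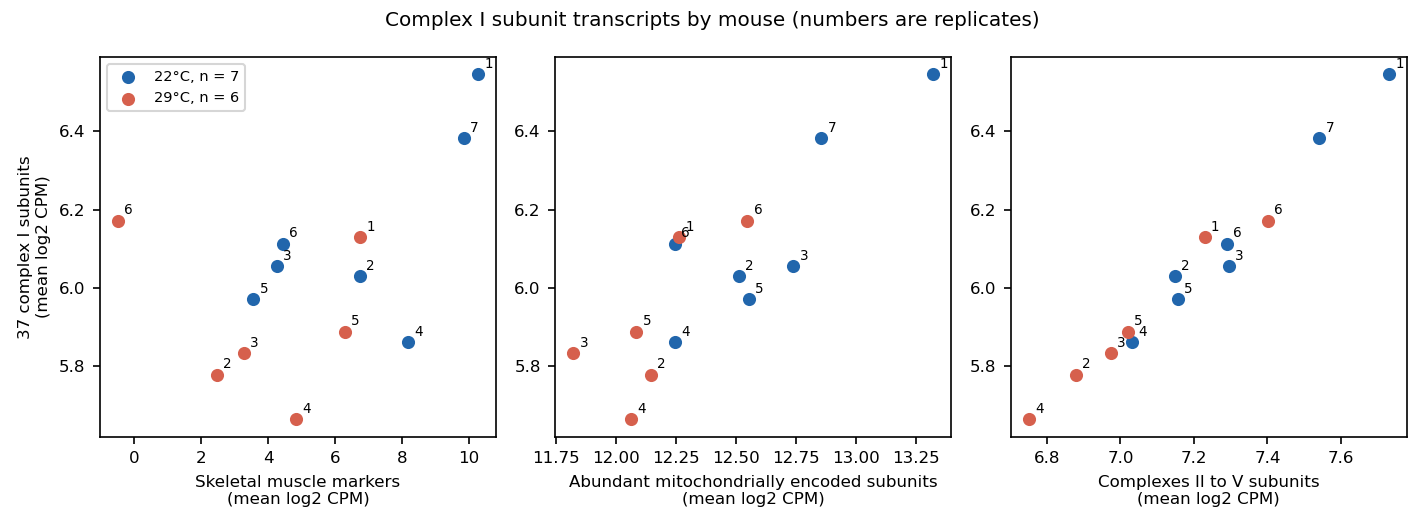
Mean log2 CPM of the 37 complex I subunits in each mouse (y axis) against the mean log2 CPM of muscle markers, of 5 abundant mitochondrially encoded subunits and of subunits of complexes II to V (x axes), with replicate numbers beside the points. Points lie close to a line for complexes II to V (r = 0.99) and are scattered for muscle markers (r = 0.47), where 22°C replicates 1 and 7 stand at the upper right.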

How the data were processed

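RNA of gluteal WAT from 7 mice at 22°C and 6 mice at 29°C was sequenced, and mice were grouped by the temperature and replicate number in the labels. The authors deposited raw counts per gene of 34419 genes in 13 libraries, aligned with STAR 2.7.5a and counted with featureCounts per the submitters' processing notes, which also name build GRCm39. A second deposited table holds the authors' log2 values, regularized by DESeq2, used here as an alternative. Annotation release and strand setting are not given in the sources used here, so no coordinates are printed other than those of RefSeq promoter windows (GRCm38.p6). Symbols were matched by Ensembl identifier for 34006 rows. Exon lengths and overlaps came from GENCODE M21 (GRCm38).

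Counts were compared with edgeR 4.0.16 in R 4.3.3 (TMM, filterByExpr, quasi-likelihood F test, Benjamini-Hochberg adjustment over 17779 genes, P-adj below 0.1, no covariate). The SE was taken as |log2 fold change|/√F. Levels in CPM were scaled by TMM, with a prior count of 2 on the log2 scale. A count of 0 allows 3 counts, or 0.119 to 0.134 CPM, for counting error only. No 2 libraries agreed within sampling noise (lowest chi-square per gene 16.9 over 78 pairs). The p-values set the difference between temperatures against the spread between these mice.

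The genes, the lists and the tests were chosen with earlier results of these data known. Levels by mouse are given for *Ndufb8*, the core subunits, any gene past the threshold, the 5 genes with the smallest p, the 3 with the largest and the 3 with the smallest log2 fold change and the 3 most abundant per length. Of the genes this rule gives, 1 is not reported here. Levels of *Ndufaf6*, *Ndufb3* and *Ndufv3* were added after their values were seen. *Ndufb1* was kept because RefSeq lists it as protein coding, and *Ndufb4c*, also protein coding there, was left out as a processed pseudogene of GENCODE. The alternatives comprised DESeq2 1.42.0, its size factors, no filter, a mean of at least 10 counts, limma 3.58.1 on the log2 values, the replicate block, the muscle mean as a covariate, muscle markers removed, the cluster of library totals, leaving out each mouse, P-adj below 0.05 and subunits only. Leaving out both mice with over 5% muscle markers was added after the data were seen. The scripts were tested on simulated counts.

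Lists of other cell types were also read. Macrophage markers had 3 of 7 genes higher at 22°C, lymphocyte markers 7 of 7 (*Cd3e* called, log2 fold change 1.78, SE 0.42, edgeR P-adj 0.0817), epithelium 0 of 3, endothelium 0 of 3, red blood cell 0 of 3 and mature adipocyte 4 of 12 (*Lep* called lower).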

Additional observations from a re-analysis of the deposited data

Results flagged for a closer look

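Within each temperature, a mouse was singled out for a gene where it stood far from the rest of its group relative to the group's range. Of 110 groups examined, 2 were singled out, and chance alone does so in about 1 of 20. Both concern 22°C replicate 4. *Ndufv3* was lowest there at 6.54 log2 CPM, while the other 22°C mice were between 6.80 and 6.91. *Ndufs5* was lowest there at 4.48 log2 CPM, while the other 22°C mice were between 4.93 and 5.19. The same mouse had the lowest subunit mean at 22°C, 5.86.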

How the results depend on the processing

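None of the 47 genes was called with DESeq2 size factors, either other filter, limma, the muscle covariate, muscle markers removed, the totals cluster, libraries of higher totals, P-adj below 0.05, or without single mice or both muscle-rich mice. DESeq2 called 4 of 47, and 1676 of all genes. All genes called numbered 42 without a filter, 41 with the muscle covariate, 4 with the totals cluster as a covariate, 8 in libraries with higher totals, 40 at P-adj below 0.05, and 32 to 652 without single mice. Lower totals occurred only in 22°C replicates 1 to 5, so library total is partly confounded with temperature. Both fits on totals rest on 22°C replicates 6 and 7, the latter rich in muscle markers, against the 29°C mice. Genes of the 47 with an unadjusted p below 0.05 numbered 2 with the muscle covariate, 10 with the totals cluster, 5 without both muscle-rich mice, and 5 to 22 without single mice. With the replicate block, 2 of 47 were called, *Ndufa2* (adjusted p = 0.0946) and *Ndufc2* (adjusted p = 0.0988). An unadjusted p below 0.05 was then found for 25, of which 24 were higher at 22°C and *Ndufs5* was lower (-0.16, SE 0.058). Deviations of same-numbered mice correlated between 0.051 and 0.51, and 4 of 6 mice at 22°C and 3 of 6 at 29°C correlated best with their own number, a hint from the data only. Since 1 of 6 pairs was below 0.1 and the labels give no shared litter or day, the numbers were not taken to pair the mice.

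Directions turned as follows on the log2 scale. With the muscle covariate, values were 0.021 for *Ndufb3*, -0.0016 for *Ndufs6*, -0.047 for *Ndufc1*, -0.019 for *Ndufb4*, -0.20 for *Ndufaf4* and -0.023 for *Ndufaf5*. Without both muscle-rich mice, they were -0.061 for *Ndufs1*, -0.030 for *Ndufs6*, -0.041 for *Ndufb2*, -0.079 for *Ndufc1*, -0.039 for *Ndufb4*, -0.21 for *Ndufaf4* and -0.022 for *Ndufaf5*. With the totals cluster and with higher totals, they were 0.070 and 0.059 for *Ndufb3*, 0.017 and 0.0083 for *Ndufs5* and 0.12 and 0.11 for *Ndufaf1*. With the replicate block *Ndufaf4* was -0.070. Without single mice, ranges that crossed 0 were -0.12 to 0.048 for *Ndufb3*, -0.079 to 0.14 for *Ndufaf4* and -0.076 to 0.013 for *Ndufaf1*. The cause was not tested. The median of the 47 was between 0.091 and 0.34 over all alternatives, highest with the totals cluster, and 0.24 for subunits only.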
